A study of Mus musculus with 18 samples.

Results

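The transcripts described here are those of 40 mouse genes for MYC, its partner MAX, the nucleolar machinery that makes ribosomes, RNA polymerase I and nucleotide synthesis. They were picked by gene symbol from a list of names, and all 40 were found among the 23420 genes listed. The list was chosen with earlier results of these data known, so its counts beside the shares of all genes are descriptive. Of these, 39 passed the filter on low counts and were tested among 11876 genes; Mycn had 8 counts over all libraries and was not tested. RNA was sequenced from dendritic cells (BMDCs) that had been grown from C57BL/6 bone marrow. In all groups the cells were replated from day 9 cultures in 20 ng/ml GM-CSF, treated for 8 h and sorted as live CD11c-high cells. There were 6 groups of 3 libraries each. Cells of genotype Bat3 fl/fl CD11c Cre (cKO; Bat3 is the earlier name of Bag6, and Cre is driven by the CD11c promoter) received LPS or medium. Wild type (WT) cells received LPS with IL10 and TGF-β, IL10 and TGF-β alone, LPS alone, or medium. LPS is the bacterial lipopolysaccharide that activates dendritic cells through TLR4, and IL10 with TGF-β restrain that activation; the doses are not in the labels. The labels speak of 5 biological replicates but do not say from which animals or cultures the 3 libraries of a group came. The p-values thus measure the spread between these libraries, which may be technical. Only in the cKO groups do the data say more: by the sex-linked genes given below, the first replicate came from another animal than the other replicates.

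MYC binds DNA as a dimer with MAX, most tightly at the E-box, and is known in many cell types as an activator of genes for ribosome production. RNA polymerase I transcribes the precursor of the large ribosomal RNAs in the nucleolus. Small nucleolar ribonucleoproteins of the box C/D and box H/ACA kinds modify that precursor, and large sets of assembly factors then build the small and the large subunit around it. MAX also pairs with the MXD proteins and MXI1, dimers that repress the same E-boxes.

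Bag6, the deleted gene (mm10 chr17:35135156-35147321), measured 11.3, 10.4 and 6.31 CPM (counts scaled to the size of the library) in the cKO LPS libraries. It measured 4.81, 7.31 and 4.56 CPM in the cKO medium libraries, against 22.8 to 27.6 CPM in the 12 WT libraries. Bag6 was 4.23-fold lower in cKO than in WT medium cells (log2 fold change -2.08 ± 0.17, SE, edgeR quasi-likelihood test, adjusted p = 9.1e-08) and 2.56-fold lower in cKO than in WT LPS cells (-1.36 ± 0.17, adjusted p = 9.3e-06). Every cKO library was below every WT library, and part of the Bag6 RNA remained. Libraries held 8056831 to 12068759 counts. The first replicate of both cKO groups stood apart in Xist. Xist measured 1014 CPM in that LPS library and 526 CPM in that medium library, and at most 1.12 CPM in the other 16. The Y-linked Eif2s3y measured 0.283 and 0.181 CPM in these libraries, against 63.5 to 88.5 CPM in the other 16. By these genes the first cKO replicates were female and the other 16 libraries male, so sex was not balanced between cKO and WT. The part of sex in the genotype results was not tested. The third WT medium replicate stood apart in its summed dendritic cell markers (3990 CPM, against 7926 and 8949 CPM in the other WT medium libraries). The precursor ribosomal RNA entry, Rn45s, took 2.43% ± 1.42 of counts in cKO medium libraries and 7.40% ± 0.893 in WT medium libraries (SD, n = 3 each). Lymphocyte markers stayed at or below 0.624 CPM in all libraries.

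Per length, the set was led by Ptma, an acidic nuclear protein that binds histone H1, at 1158 ± 126 TPM, and by Npm1, the nucleolar chaperone nucleophosmin, at 713 ± 9.52 TPM in WT medium cells (SD, n = 3). Myc itself (chr15:61985341-61990361) stood at 81.1 ± 11.6 TPM there, and Utp20, a factor of the small subunit processome, was the lowest of the tested members at 2.53 TPM. Summed over the 40 members, the level was 842 to 870 TPM in cKO LPS, 2336 to 2625 TPM in cKO medium, 920 to 964 TPM in WT LPS-plus-cytokine, 2442 to 3003 TPM in WT cytokine, 899 to 1035 TPM in WT LPS and 2990 to 3626 TPM in WT medium libraries. The 9 LPS libraries lay below all 9 libraries without LPS. Of the 39 tested members, 21 had their highest group mean in WT medium cells and 14 in WT cytokine cells, and 27 had their lowest in cKO LPS cells. The groups were not ranked for all tested genes, so this order is not shown to be particular to the set. In bulk RNA, fewer cells of a type and less RNA per cell cannot be told apart.

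**Figure D1:**
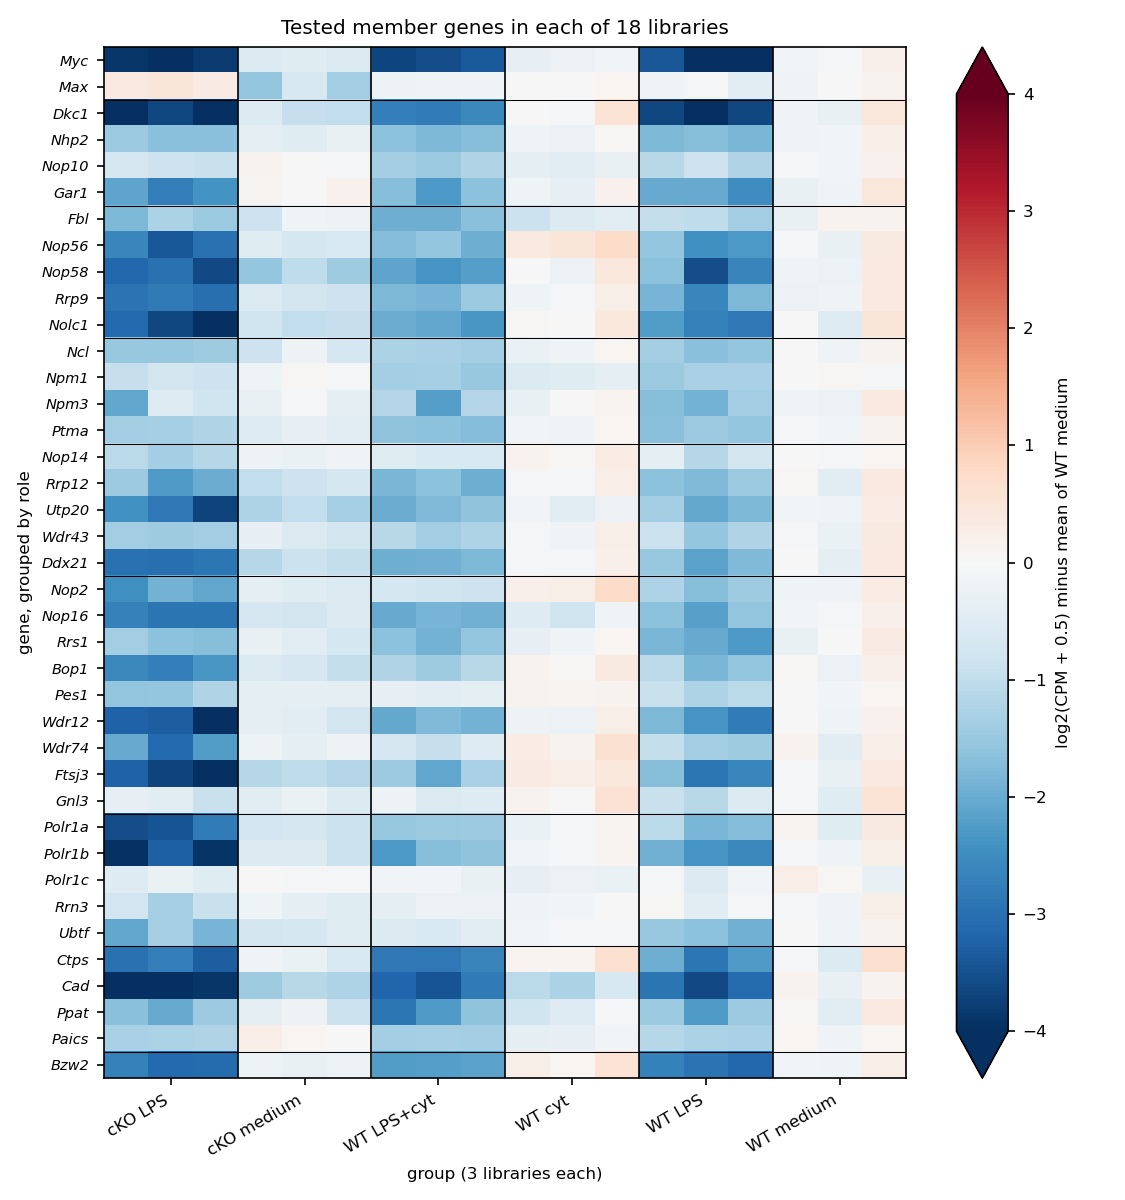
Each row is a member and each column a library; colour gives its log2(CPM + 0.5) minus the mean of the WT medium libraries, with colours ending at -4 and 4. The 9 columns with LPS are blue for nearly all rows, and the cKO LPS columns are the darkest, with library medians between -2.27 and -2.09.

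LPS lowered almost the whole set in WT cells. In WT LPS against WT medium cells 36 of 39 tested members fell, where 28.9% of all tested genes fell. Of the members, 34 were at least 2-fold and 15 at least 4-fold lower. Genes past these folds were not counted over all tested genes, here or in the comparisons below. None rose, where 29.8% of all tested genes rose (edgeR; 0 members also at an unadjusted p under 0.05, with DESeq2 and with limma on TPM). The median log2 fold change was -1.80 over the members and 0.01 over all tested genes. Every tested member of the box H/ACA (4), box C/D (5), chaperone (4), small subunit (5), large subunit (9) and nucleotide (4) groups fell, as did Bzw2, an eIF5-like regulator of translation. For RNA polymerase I, 3 of 5 fell.

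Myc, the transcription factor, measured 9.18, 3.62 and 5.30 CPM in WT LPS libraries, against 94.8, 97.1 and 118 CPM in WT medium libraries. It was 17.0-fold lower, with a log2 fold change of -4.09 ± 0.21 (SE, adjusted p = 3.8e-12). Dkc1, the pseudouridine synthase of box H/ACA particles, measured 1.90, 0.817 and 1.88 CPM in WT LPS libraries, against 26.2, 23.7 and 40.7 CPM in WT medium libraries. That is 19.5-fold lower (-4.28 ± 0.33, adjusted p = 2.6e-09), the widest fall in this comparison. The groups did not overlap for either gene.

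Gar1, another box H/ACA core protein, had 3, 3 and 1 counts in WT LPS libraries and 27, 30 and 49 counts in WT medium libraries. It passed the test (adjusted p = 3.4e-06), but too few counts remained in the LPS libraries for a useful fold. Cad, which carries out the first steps of pyrimidine synthesis, fell by 3.34 on the log2 scale, Bzw2 by 3.07, the snoRNP-associated Nolc1 by 2.72 and the CTP synthase Ctps by 2.63. These 4 were at least 6.17-fold lower.

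Max, Rrn3 and Polr1c did not pass the test in WT cells. Max measured 19.5, 20.9 and 16.0 CPM in WT LPS libraries and 19.5, 22.1 and 23.8 CPM in WT medium libraries (-0.22, adjusted p = 0.28), so the groups overlapped. Rrn3, the factor that brings RNA polymerase I to its promoter, had a log2 fold change of -0.14 (adjusted p = 0.39), and Polr1c, a subunit shared by RNA polymerases I and III, of -0.24 (adjusted p = 0.15). Mycn had no count in any WT LPS or WT medium library. Of 8 markers of dividing cells, 8 were also lower in WT LPS cells, with summed levels of 323 to 391 CPM in WT LPS and 871 to 1108 CPM in WT medium libraries; their part in the fall was not tested.

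**Figure D2:**
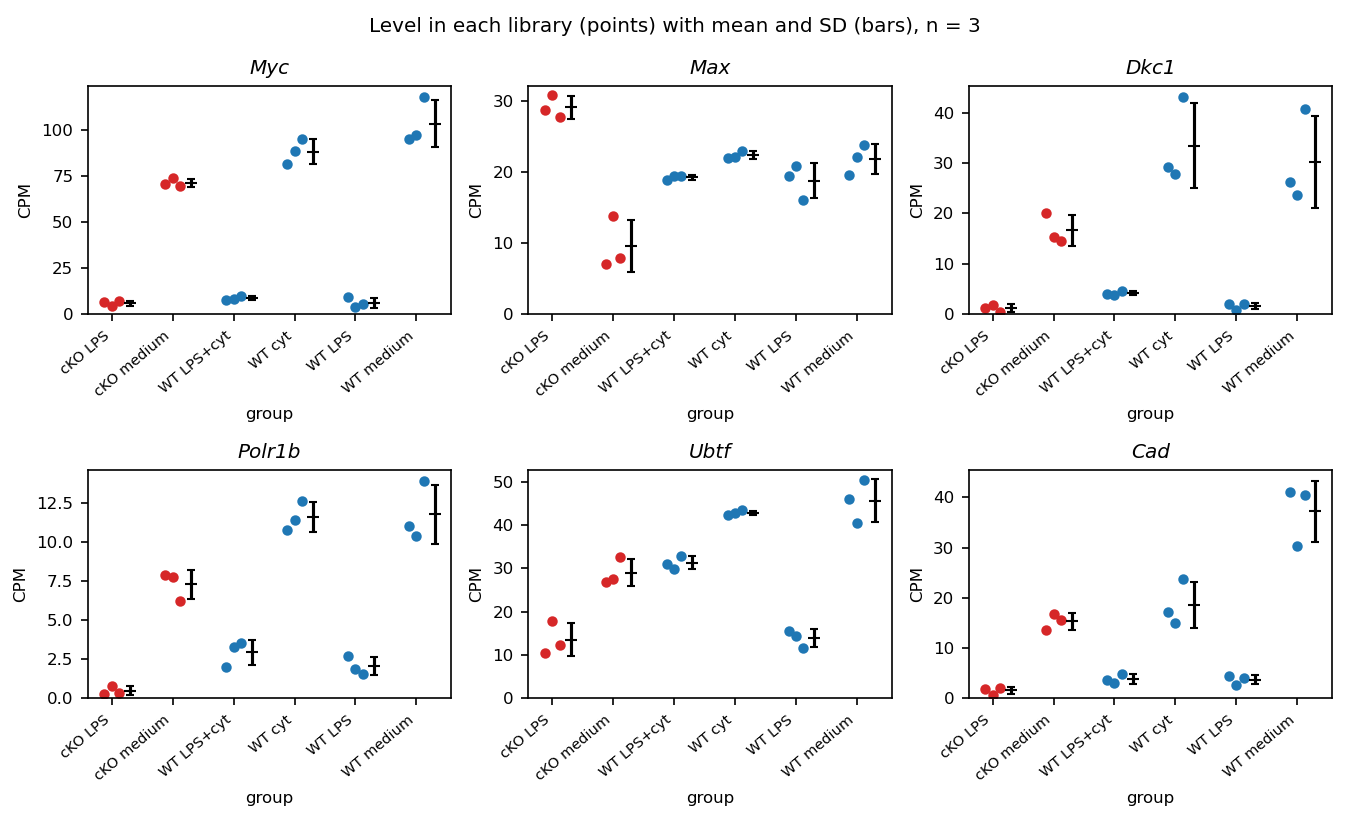
CPM of 6 members in each library (points) with the group mean and SD (bars, n = 3), red for cKO and blue for WT, each panel on its own linear axis from 0. Myc, Dkc1 and Cad are low in every LPS group, Max is high in cKO LPS and low in cKO medium cells, and Ubtf is higher in WT LPS-plus-cytokine than in WT LPS cells.

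The promoters of 34 members were found in a RefSeq table (GRCm38.p6), as windows of 300 bases from 250 before to 50 after a listed start site. For Max, Wdr43 and Bzw2 that start site lay inside the gene and not at its outer end. The windows were searched for the E-box CACGTG, which is its own reverse complement. The E-box was in the window of 8 of the 34 members (23.5%), of 11.9% of 8871 tested genes and of 8.09% of all 27025 genes with a window. The 8 were Max, Utp20, Wdr43, Nop2, Pes1, Rrn3, Paics and Bzw2. Shown first, in capitals, is the single E-box upstream of Nop2, an rRNA methyltransferase gene that fell with LPS. Next is Rrn3, with an E-box at 2 places and no call with LPS in WT cells, and then Dkc1, which fell most and has none in the window. Each of these runs covers the 250 bases before the start: Nop2 at chr6:125131633-125131882, Rrn3 at chr16:13780449-13780698 and Dkc1 at chrX:75095604-75095853, all on the plus strand. The 30-base sites at the listed start sites of Max (chr12:76962234-76962263, minus strand) and Pes1 (chr11:3963965-3963994, plus strand) follow.
Nop2: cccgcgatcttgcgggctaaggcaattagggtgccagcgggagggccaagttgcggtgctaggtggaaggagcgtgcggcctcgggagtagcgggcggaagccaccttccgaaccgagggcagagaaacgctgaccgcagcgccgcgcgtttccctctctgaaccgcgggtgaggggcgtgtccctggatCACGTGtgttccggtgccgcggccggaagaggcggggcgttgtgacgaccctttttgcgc
Rrn3: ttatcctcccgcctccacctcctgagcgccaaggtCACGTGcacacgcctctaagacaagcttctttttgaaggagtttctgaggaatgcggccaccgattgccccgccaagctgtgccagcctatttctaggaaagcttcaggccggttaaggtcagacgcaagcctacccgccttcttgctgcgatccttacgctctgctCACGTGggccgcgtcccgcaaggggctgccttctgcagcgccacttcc
Dkc1: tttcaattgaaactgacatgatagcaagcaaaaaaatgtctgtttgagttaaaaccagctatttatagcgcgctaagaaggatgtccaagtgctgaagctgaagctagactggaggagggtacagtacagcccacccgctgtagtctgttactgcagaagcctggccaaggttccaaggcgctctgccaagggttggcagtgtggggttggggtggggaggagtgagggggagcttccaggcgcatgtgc
Max: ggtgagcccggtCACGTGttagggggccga
Pes1: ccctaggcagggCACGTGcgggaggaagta
The median log2 fold change in WT LPS against WT medium cells was -1.24 over the 8 members with an E-box in the window and -1.85 over the 25 tested members without. The letters describe the window alone, and a gene without a match may hold other sites.

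LPS lowered most of the set in cKO cells too. In cKO LPS against cKO medium cells 36 of 39 members fell, where 34.8% of all tested genes fell, and Max rose, where 29.3% of all tested genes rose (edgeR). The median log2 fold change was -1.72 over the members and -0.09 over all tested genes. At least 2-fold lower were 29 members and at least 4-fold lower 18, sizes not counted over all genes. Myc measured 6.51, 4.05 and 6.77 CPM in cKO LPS libraries, against 70.4, 73.7 and 69.4 CPM in cKO medium libraries. The difference was 12.3-fold (-3.62 ± 0.21, SE, adjusted p = 3.3e-11), with no overlap.

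Polr1b, a core subunit of RNA polymerase I, measured 0.283, 0.780 and 0.308 CPM in cKO LPS libraries, against 7.89, 7.79 and 6.24 CPM in cKO medium libraries. Its level was 15.8-fold lower (-3.98 ± 0.36, adjusted p = 5.3e-09), although only 1.84, 5.34 and 1.5 estimated counts stand behind the LPS values. Dkc1 measured 1.13, 1.87 and 0.308 CPM in cKO LPS libraries, against 20.1, 15.2 and 14.4 CPM in cKO medium libraries (-3.90 ± 0.38, adjusted p = 4.6e-08). Its lowest LPS value rests on 2.01 estimated counts. Gar1 had 2, 0 and 1 counts in cKO LPS libraries and 35, 30 and 36 counts in cKO medium libraries, and no fold is given. All 3 genes were lower in every LPS library.

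Max measured 28.7, 30.9 and 27.7 CPM in cKO LPS libraries, against 6.99, 13.8 and 7.92 CPM in cKO medium libraries. It was 3.05-fold higher (1.61 ± 0.18, adjusted p = 1.1e-07), the single member that rose, and its groups did not overlap. Gnl3, the nucleolar GTPase nucleostemin, and Npm3, a nucleophosmin relative with 257 counts in all, did not pass the test. Rrn3 (-0.65, adjusted p = 0.00058) and Polr1c (-0.38, adjusted p = 0.029) passed in cKO and not in WT cells, but their LPS responses did not pass the test of a difference between genotypes (adjusted p = 0.083 for Rrn3 and 0.68 for Polr1c). Dividing-cell markers summed to 358 to 437 CPM in cKO LPS and 765 to 981 CPM in cKO medium libraries, with 6 of 8 lower. Granulocyte precursor markers summed to 91.4 to 275 CPM in cKO LPS and 173 to 495 CPM in cKO medium libraries, with 5 of 8 lower. Rn45s was higher in cKO LPS than in cKO medium cells (1.77 ± 0.32, adjusted p = 0.00019). The part of these in the fall was not tested. On the TPM scale the median of all genes moved by -0.47 in this comparison, so changes are given relative to the other genes.

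Most members also fell with LPS in WT cells that received the cytokines. In WT LPS-plus-cytokine against WT cytokine cells 36 of 39 members fell, where 23.1% of all tested genes fell, and none rose, where 23.9% rose (edgeR; 0 also at an unadjusted p under 0.05, with DESeq2 and with limma on TPM). Ctps measured 1.43, 1.45 and 1.71 CPM in WT LPS-plus-cytokine libraries, against 14.7, 14.7 and 21.6 CPM in WT cytokine libraries. It was 11.1-fold lower (-3.47 ± 0.32, SE, adjusted p = 3.9e-08), with no overlap.

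Myc measured 7.53, 8.29 and 9.55 CPM in WT LPS-plus-cytokine libraries, against 81.3, 88.2 and 94.8 CPM in WT cytokine libraries, and was 10.4-fold lower (-3.38 ± 0.19, adjusted p = 3.6e-10). Dkc1 measured 3.94, 3.76 and 4.52 CPM in WT LPS-plus-cytokine libraries, against 29.3, 27.8 and 43.2 CPM in WT cytokine libraries, and was 8.20-fold lower (-3.04 ± 0.28, adjusted p = 8.8e-08). Neither gene overlapped between the groups. Mycn had 2, 0 and 2 counts in WT LPS-plus-cytokine libraries and 0, 0 and 2 counts in WT cytokine libraries. Max, Rrn3 and Polr1c were again not called. Of 8 dividing-cell markers, 8 were lower, with 197 to 242 CPM summed in WT LPS-plus-cytokine and 604 to 867 CPM in WT cytokine libraries; their part was not tested. The 3 comparisons of LPS with its absence share no library, though they may share animals. In all of them 34 members fell, where 14.8% of all tested genes did.

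**Figure D3:**
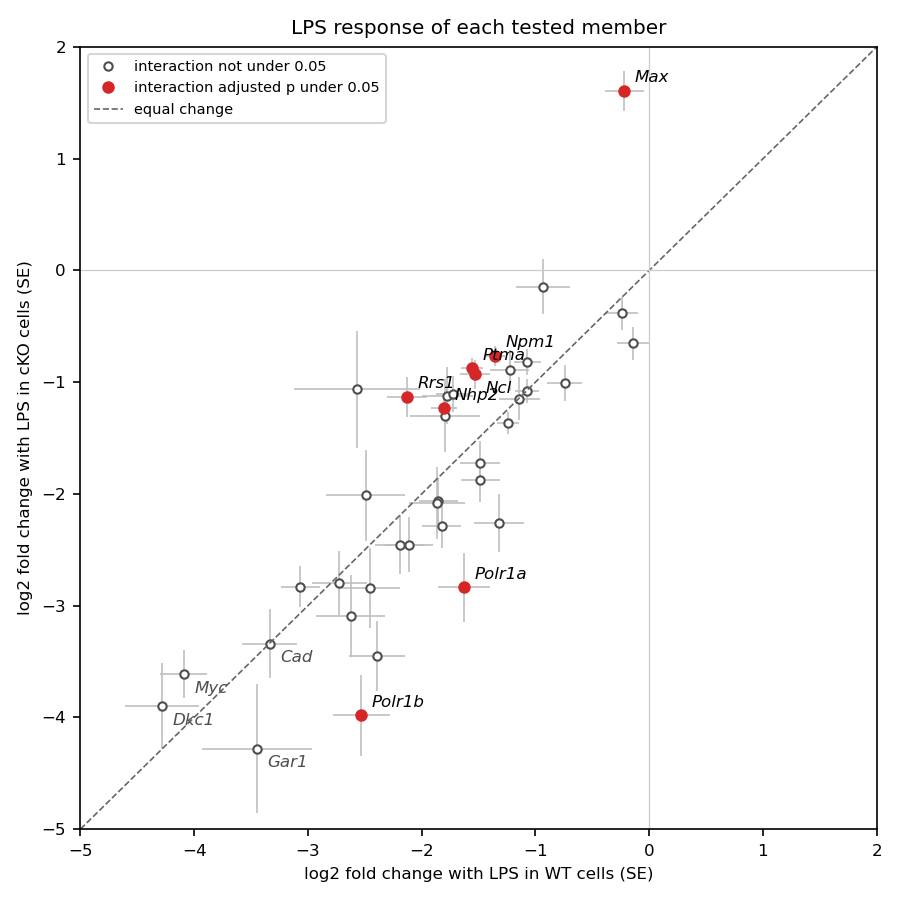
Log2 fold change with LPS in cKO cells (vertical axis) against that in WT cells (horizontal axis), 1 point per member with bars of 1 SE. Points in red passed the test of a difference between the genotypes, the dashed line marks an equal change, and Max lies highest, at 1.61 in cKO and -0.22 in WT cells; the point of Gar1 rests on few counts.

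The response to LPS differed by genotype for 8 of 39 members, a share close to the 17.4% of all tested genes that passed the same edgeR interaction test. The difference of the 2 log2 fold changes was positive for 6 (7.33% of all tested genes) and negative for 2 (10.1%). It was widest for Max, at 1.83 ± 0.25 (SE, adjusted p = 0.0001), and Max passed under all 21 alternative settings, with adjusted p up to 0.00096. Rrs1, a large subunit factor, measured 13.4, 11.1 and 10.8 CPM in cKO LPS and 28.9, 26.6 and 22.0 CPM in cKO medium libraries, against 9.62, 8.40 and 6.95 CPM in WT LPS and 28.8, 35.6 and 44.7 CPM in WT medium libraries. Its fall was the smaller in cKO cells (difference 1.00 ± 0.25, adjusted p = 0.010).

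Ptma (0.69 ± 0.13, adjusted p = 0.0020), the nucleolar protein nucleolin (Ncl, 0.60), Npm1 (0.59) and the box H/ACA protein Nhp2 (0.57) also fell less in cKO cells. On the TPM scale the calls of Ncl, Npm1 and Nhp2 were lost, with the sign kept. Nhp2 also lost its call without the third WT medium replicate. Ncl lost it without cKO LPS replicate 3, cKO medium replicate 1 or 3, WT LPS replicate 2 or 3, or WT medium replicate 3. Polr1b (-1.45 ± 0.50, adjusted p = 0.049) and Polr1a, the catalytic subunit of RNA polymerase I (-1.21 ± 0.40, adjusted p = 0.043), fell more. These last calls rest on few counts in the cKO LPS libraries and were lost under several settings, with adjusted p from 0.036 to 0.91 for Polr1b and from 0.016 to 0.54 for Polr1a. With the first cKO LPS and cKO medium replicates left out, 5 differences were positive and 0 negative (edgeR). For Myc the difference was 0.48 (adjusted p = 0.30). Rn45s had a difference of 1.74 (adjusted p = 0.016), 3 of 8 granulocyte precursor markers had a negative and 2 of 8 dividing-cell markers a positive one, and their part was not tested.

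In medium, 24 of 39 members were lower in cKO than in WT cells, where 14.4% of all tested genes were lower. None was higher, where 15.8% of all tested genes were (edgeR; 0 members also at an unadjusted p under 0.05, with DESeq2 and with limma on TPM). The differences were moderate, with a median log2 fold change of -0.52, against -0.001 over all tested genes. At least 2-fold lower were 6 members, a size not counted over all genes. By role, 4 of 5 box C/D, 4 of 5 small subunit, 6 of 9 large subunit and 3 of 5 RNA polymerase I members fell, against 1 of 4 for nucleotide synthesis. Both tested MYC factors fell.

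Nop58, a scaffold protein of box C/D particles, measured 15.5, 22.9 and 16.9 CPM in cKO medium libraries, against 41.4, 39.3 and 61.7 CPM in WT medium libraries (2.58-fold lower, -1.37 ± 0.32, SE, adjusted p = 0.0049). Cad measured 13.5, 16.8 and 15.6 CPM in cKO medium libraries, against 41.1, 30.3 and 40.5 CPM in WT medium libraries (-1.28 ± 0.20, adjusted p = 0.00011). Utp20 measured 4.90, 5.87 and 4.56 CPM in cKO medium libraries, against 11.1, 10.7 and 14.8 CPM in WT medium libraries (-1.26 ± 0.23, adjusted p = 0.00034). None of the 3 overlapped between genotypes.

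Max measured 6.99, 13.8 and 7.92 CPM in cKO medium libraries, against 19.5, 22.1 and 23.8 CPM in WT medium libraries, and was 2.29-fold lower (-1.19 ± 0.18, adjusted p = 5.2e-05). Myc measured 70.4, 73.7 and 69.4 CPM in cKO medium libraries, against 94.8, 97.1 and 118 CPM in WT medium libraries, and was 1.45-fold lower (-0.54 ± 0.16, adjusted p = 0.018). Neither overlapped, and the drop in Myc was small beside that with LPS. Mycn had 1, 0 and 1 counts in cKO medium libraries and none in WT medium libraries.

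Among the other falls were Ftsj3, an rRNA methyltransferase (-1.19), the RNA helicase Ddx21 (-1.03), Nolc1 (-0.97), Rrp12 (-0.92), Dkc1 (-0.86), Polr1a (-0.84) and Ubtf, the factor that binds ribosomal DNA promoters (-0.66). The purine enzyme Paics (0.11), Gar1 (0.07), Nop10 (0.01) and Npm1 (-0.06) lay near 0 and did not pass. Without the third WT medium replicate 16 members were lower. The calls lost were those of Myc (adjusted p = 0.078), Dkc1, Nhp2, Nop56, Wdr43, Nop2, Rrs1 and Polr1b, and over its 15 alternatives Myc had adjusted p from 5.7e-05 to 0.078. Of 8 markers of granulocyte precursors 6 were higher in cKO medium cells (173 to 495 CPM summed, against 73.4 to 203 CPM in WT medium cells), and 1 of 8 dividing-cell markers was lower. Rn45s was lower too (-1.58 ± 0.32, adjusted p = 0.0020), and the part of these in the result was not tested.

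**Figure D4:**
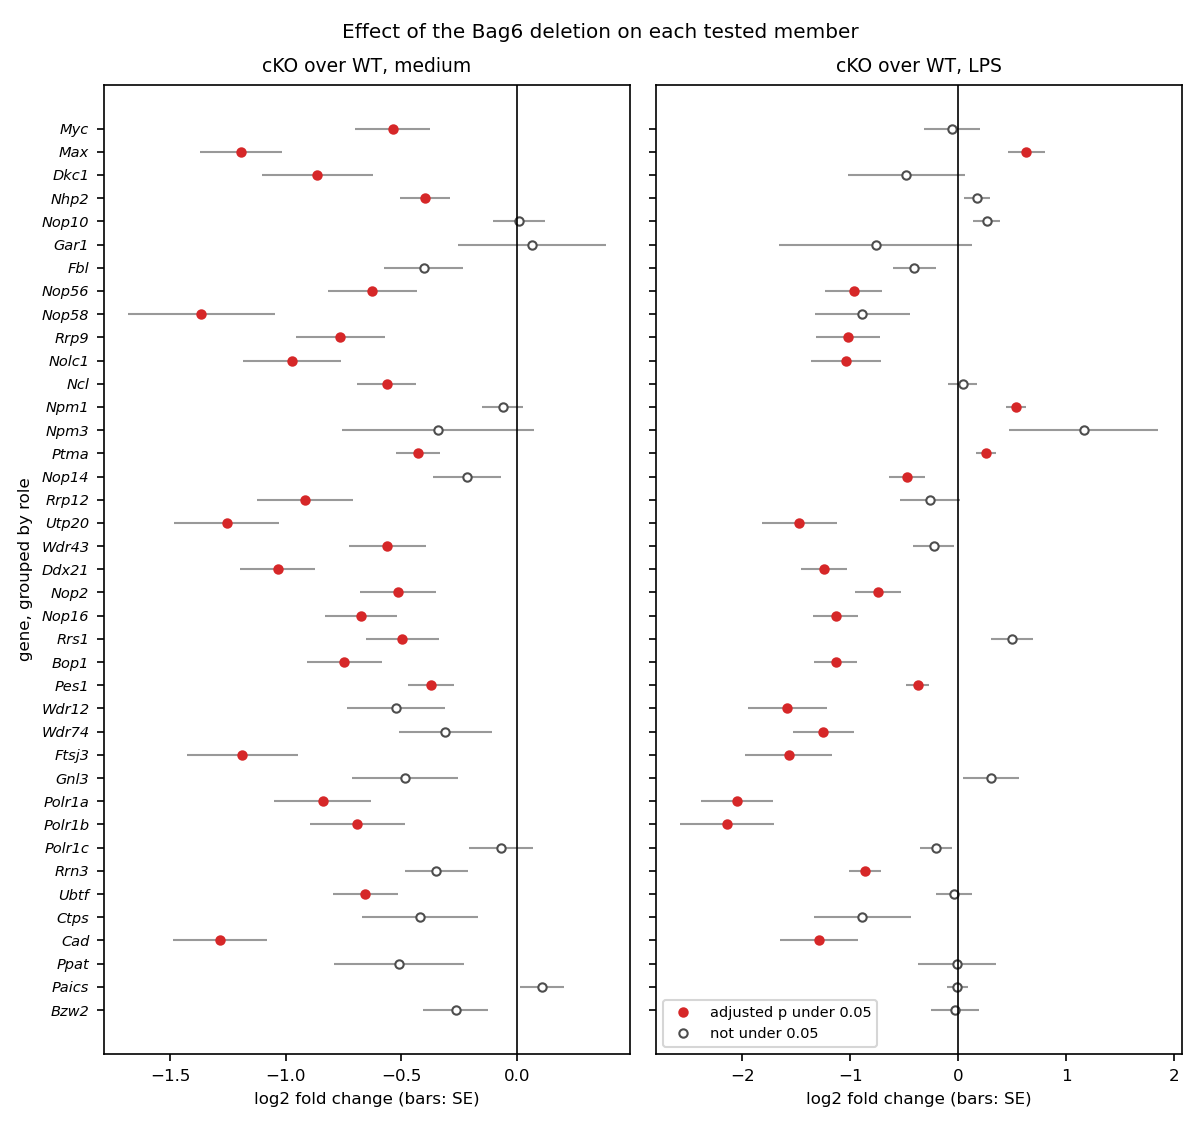
Log2 fold change of each tested member in cKO over WT cells, in medium (left) and with LPS (right), with bars of 1 SE and filled points for an adjusted p under 0.05. In medium all called members lie left of 0; with LPS, Max, Npm1 and Ptma lie right of it.

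With LPS, 17 of 39 members were lower in cKO than in WT cells, where 19.3% of all tested genes were lower, and 3 were higher, where 16% were (edgeR). The falls were of large subunit factors (7 of 9), box C/D proteins (3 of 5), small subunit factors (3 of 5), RNA polymerase I (3 of 5) and nucleotide synthesis (1 of 4, Cad). The median log2 fold change was -0.48, against -0.05 over all tested genes. At least 2-fold lower were 12 members, a size not counted over all genes.

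Polr1b measured 0.283, 0.780 and 0.308 CPM in cKO LPS libraries, against 2.69, 1.87 and 1.54 CPM in WT LPS libraries (4.41-fold lower, -2.14 ± 0.44, SE, adjusted p = 0.00084). Polr1a measured 0.990, 1.09 and 2.00 CPM in cKO LPS libraries, against 7.72, 4.43 and 4.74 CPM in WT LPS libraries (4.14-fold lower, -2.05 ± 0.33, adjusted p = 9.8e-05). Wdr12, which forms a large subunit complex with Pes1 and Bop1, measured 1.98, 1.87 and 0.461 CPM in cKO LPS libraries, against 6.15, 4.08 and 2.87 CPM in WT LPS libraries (-1.58 ± 0.37, adjusted p = 0.0022). The cKO libraries were below all WT libraries for each of the 3, at low counts. Other falls were Ftsj3 (-1.57), Utp20 (-1.47), Cad (-1.29), Wdr74 (-1.25), Ddx21 (-1.24), Bop1 and Nop16 (-1.14 each) and Rrn3 (-0.86).

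Max was higher, with 28.7, 30.9 and 27.7 CPM in cKO LPS libraries, against 19.5, 20.9 and 16.0 CPM in WT LPS libraries (1.55-fold, 0.63 ± 0.17, adjusted p = 0.0072). Npm1 measured 273, 312 and 293 CPM in cKO LPS libraries, against 186, 210 and 210 CPM in WT LPS libraries (0.53 ± 0.09, adjusted p = 0.00015). Ptma measured 268, 279 and 306 CPM in cKO LPS libraries, against 221, 253 and 240 CPM in WT LPS libraries (0.26 ± 0.10, adjusted p = 0.040). All cKO libraries exceeded all WT libraries for these genes in CPM. On the TPM scale, where the median of all genes moved by -0.31, all 3 lost the call: Max (0.26) and Npm1 (0.17) kept a positive sign and Ptma turned to -0.10 (adjusted p = 0.37; 0.010 to 0.37 over its 15 alternatives). The call of Ptma was also lost without cKO LPS replicate 2 or 3 and without WT LPS replicate 1 or 3. Npm1 and Ptma have near-identical pseudogene copies, and the split of reads among them is uncertain.

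Myc had a log2 fold change of -0.06 ± 0.26 (adjusted p = 0.88), with 6.51, 4.05 and 6.77 CPM in cKO LPS libraries inside the 3.62 to 9.18 CPM of WT LPS libraries. In both medium and LPS, comparisons that share no library but may share animals, 13 members were lower in cKO cells, where 5.51% of all tested genes were. They were Bop1, Cad, Ddx21, Ftsj3, Nolc1, Nop16, Nop2, Nop56, Pes1, Polr1a, Polr1b, Rrp9 and Utp20. Dividing-cell markers summed to 358 to 437 CPM in cKO LPS and 323 to 391 CPM in WT LPS libraries, which overlap in part. With the first cKO LPS and cKO medium replicates left out, 15 members were lower and 3 higher.

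The cytokines alone moved few members. In WT cytokine against WT medium cells 6 of 39 members fell, where 16.9% of all tested genes fell, and 1 rose, where 18.3% did (edgeR), so the share of members that fell was near that of all genes and the share that rose was below it. Cad measured 17.1, 15.0 and 23.8 CPM in WT cytokine libraries, against 41.1, 30.3 and 40.5 CPM in WT medium libraries (2.00-fold lower, -1.0 ± 0.20, SE, adjusted p = 0.00048), with no overlap. Fbl, the rRNA methyltransferase of box C/D particles, measured 21.9, 27.1 and 29.2 CPM in WT cytokine libraries, against 32.5, 44.3 and 43.7 CPM in WT medium libraries (-0.62 ± 0.17, adjusted p = 0.0079). Nop16, a large subunit factor, measured 26.7, 21.7 and 34.3 CPM in WT cytokine libraries, against 35.4, 36.0 and 44.4 CPM in WT medium libraries (-0.49 ± 0.16, adjusted p = 0.019). For Fbl and Nop16 too the groups did not overlap.

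Npm1 (-0.46), Nop10 (-0.37) and Paics (-0.27) made up the other falls. Nop56, a second box C/D scaffold, measured 64.6, 69.3 and 82.0 CPM in WT cytokine libraries, against 47.0, 40 and 62.7 CPM in WT medium libraries. The groups did not overlap, and it was the single rise (0.53 ± 0.19, adjusted p = 0.036, and 0.00047 to 0.19 over its 14 alternatives). Myc (-0.23, adjusted p = 0.30) was not called, and its values of 81.3 to 94.8 CPM in WT cytokine libraries met the 94.8 CPM of the lowest WT medium library. Max measured 22.0, 22.2 and 23.0 CPM in WT cytokine libraries, inside the range of WT medium libraries. With the replicate number as a block, 2 members rose, since Nop2 was then called as well (adjusted p = 0.045); without the third WT medium replicate 4 rose and 4 fell.

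Under LPS, 7 of 39 members were higher in WT LPS-plus-cytokine than in WT LPS cells, where 19.1% of all tested genes were, and 1 was lower, where 21.1% were (edgeR). The share of members that rose was close to that of all genes. Dkc1 measured 3.94, 3.76 and 4.52 CPM in WT LPS-plus-cytokine libraries, against 1.90, 0.817 and 1.88 CPM in WT LPS libraries (2.63-fold higher, 1.39 ± 0.39, SE, adjusted p = 0.0077). Ubtf measured 31.1, 30 and 33.0 CPM in WT LPS-plus-cytokine libraries, against 15.6, 14.4 and 11.6 CPM in WT LPS libraries (2.27-fold higher, 1.18 ± 0.15, adjusted p = 2.6e-06). Neither gene overlapped.

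Ftsj3 measured 8.42, 5.30 and 9.45 CPM in WT LPS-plus-cytokine libraries, against 7.05, 2.80 and 3.53 CPM in WT LPS libraries. Its groups overlapped, and its call (0.79 ± 0.29, adjusted p = 0.037) had adjusted p from 0.00098 to 0.16 over its 14 alternatives. Fbl measured 9.94, 9.83 and 12.1 CPM in WT LPS-plus-cytokine libraries, against 20.3, 19.4 and 15.0 CPM in WT LPS libraries, and was the single fall (-0.78 ± 0.19, adjusted p = 0.0029), without overlap. Bzw2 (0.79), Nop2 (0.69), Pes1 (0.69) and Wdr74 (0.57) also rose. Myc did not pass (0.48 ± 0.23, adjusted p = 0.10), at 7.53, 8.29 and 9.55 CPM in WT LPS-plus-cytokine libraries against 9.18, 3.62 and 5.30 CPM in WT LPS libraries, which overlapped. Max was at 18.9, 19.4 and 19.5 CPM in WT LPS-plus-cytokine libraries, within the range of WT LPS libraries.

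**Figure D5:**
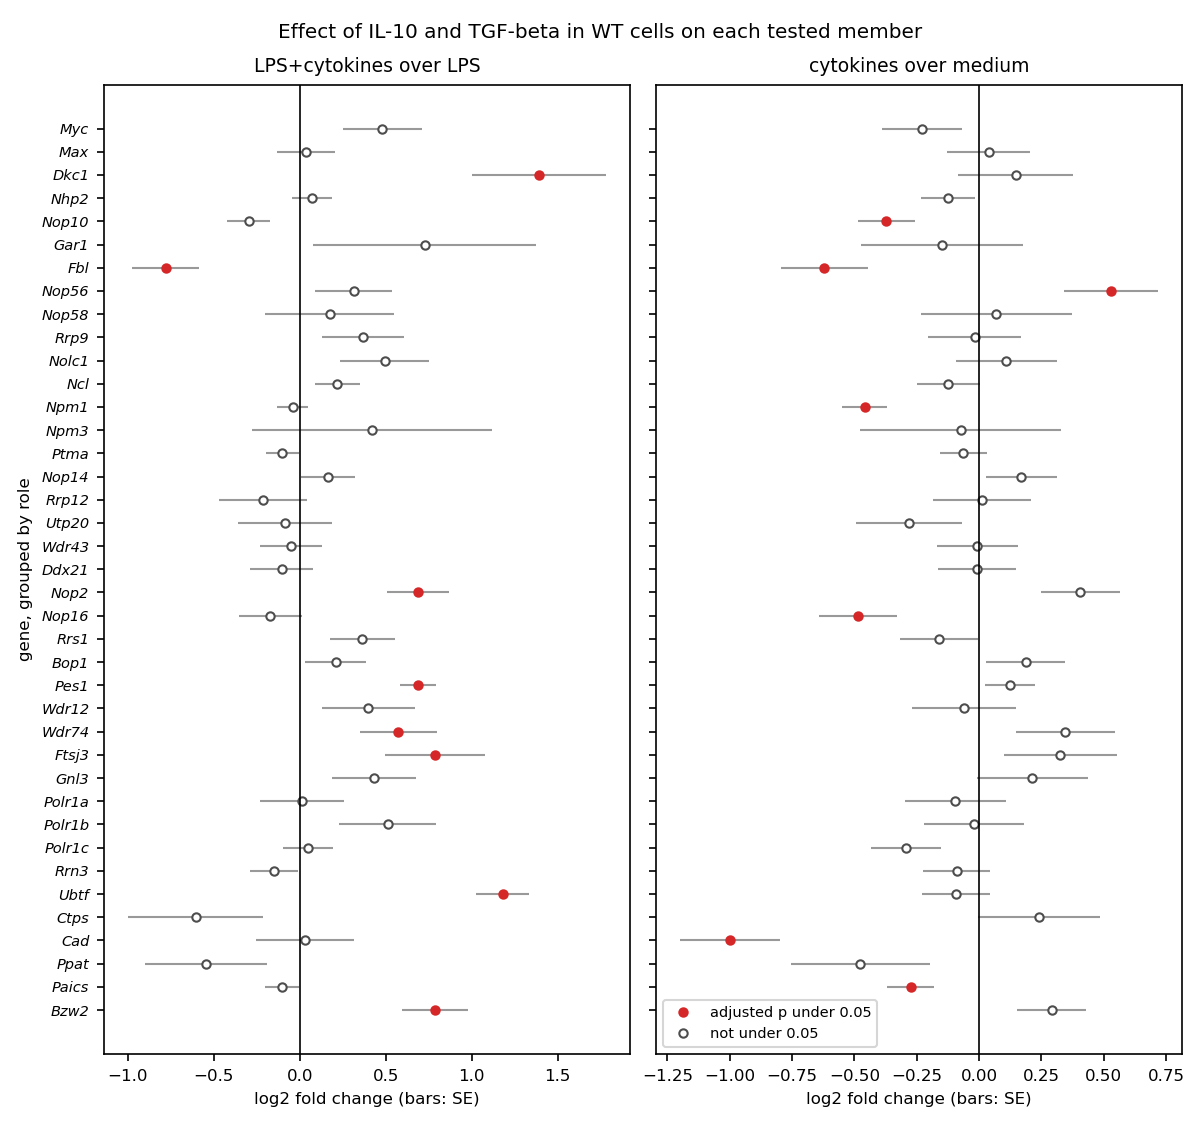
Log2 fold change of each tested member with the cytokines, in WT LPS-plus-cytokine over WT LPS cells (left) and in WT cytokine over WT medium cells (right), with bars of 1 SE and filled points for an adjusted p under 0.05. Ubtf (1.18) and Dkc1 (1.39) stand to the right on the left panel, and Cad (-1.0) to the left on the right panel.

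The LPS response itself differed with the cytokines for 4 of 39 members, all with a positive difference, a share close to the 8.88% of all tested genes that had one. No difference was negative, where 12.1% were (edgeR; 0 also at an unadjusted p under 0.05, with DESeq2 and with limma on TPM). Ubtf led (1.27 ± 0.21, SE, adjusted p = 0.00011): it was 42.4, 42.8 and 43.4 CPM in WT cytokine libraries and 46.0, 40.5 and 50.6 CPM in WT medium libraries, so its fall with LPS was the smaller with cytokines. Cad (1.03, adjusted p = 0.040, and 0.0034 to 0.13 over its 20 alternatives), Pes1 (0.56 ± 0.14, adjusted p = 0.0075) and Npm1 (0.42 ± 0.13, adjusted p = 0.023) followed, and Myc did not pass (0.71 ± 0.28, adjusted p = 0.083). The cell markers also moved with the cytokines. Dendritic cell markers summed to 1271 to 1700 CPM in WT LPS-plus-cytokine and 6946 to 7680 CPM in WT LPS libraries. Granulocyte precursor markers summed to 1040 to 1834 CPM in WT cytokine and 73.4 to 203 CPM in WT medium libraries. Macrophage markers summed to 3022 to 3310 CPM in WT LPS-plus-cytokine and 1677 to 1814 CPM in WT LPS libraries, with 6 of 7 higher, and 4 of 7 were higher with cytokines in medium. Dividing-cell markers were lower with cytokines for 6 of 8 under LPS and 4 of 8 in medium. Their part in the results on cytokines was not tested.

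Other genes of the same pathways were counted from lists that hold none of the members. These lists too were chosen with earlier results of these data known. Of 36 further small subunit processome genes, 30 fell and 2 rose in WT LPS against WT medium cells, 14 fell and 1 rose in cKO against WT medium cells, and 21 fell and 1 rose in cKO LPS against WT LPS cells. Of 35 further large subunit assembly genes, 30 fell and 1 rose, 14 fell and 1 rose, and 20 fell and 3 rose in the same comparisons. Of all tested genes, 28.9%, 14.4% and 19.3% fell in these comparisons, and 29.8%, 15.8% and 16% rose. Nol6, a small subunit factor, fell by 1.65 with LPS in WT cells and by 0.82 in cKO against WT medium cells, and Ppan, a large subunit factor, fell by 3.01 and 1.07 on the log2 scale. The RNA helicase Ddx24 was the large subunit gene that rose with LPS in WT cells (1.11).

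Of 22 further RNA polymerase I and III genes, 11 fell and 5 rose with LPS in WT cells, where 28.9% of all tested genes fell and 29.8% rose. Of 23 further nucleotide synthesis genes 19 fell and 3 rose, among them the purine enzyme Gart (-2.39). Of 23 other genes known as MYC targets, 16 fell and 1 rose, including the cell-cycle kinase Cdk4 (-1.33). Fewer genes of these 3 lists were lower by genotype than with LPS. In cKO against WT medium cells, 4 RNA polymerase genes fell and 2 rose, 5 nucleotide synthesis genes fell and 2 rose, and 7 MYC targets fell and 2 rose. There 14.4% of all tested genes fell and 15.8% rose, so the share of RNA polymerase genes that fell was near that of all genes. In cKO LPS against WT LPS cells, 8 fell and 1 rose, 7 fell and 3 rose, and 6 fell and 5 rose in the same order. There 19.3% of all tested genes fell and 16% rose, and the shares of MYC targets were near these. Of 9 tested genes of the MYC and MAX network, 5 rose and 2 fell with LPS in WT cells. Mxd1, a MAX partner that represses, rose by 3.76 ± 0.25 (adjusted p = 3.4e-09) and Mxi1 by 1.00 ± 0.14, while Mxd3 fell by 3.80. Mxd1 (1.87) and Mxi1 (1.00) were also higher in cKO than in WT medium cells, where Max was lower. Both were higher in cKO than in WT LPS cells too (1.25 and 1.22). Max was higher there in the main fit and not called on the TPM scale. Of the 9 network genes, 4 were higher and 0 lower in each of these 2 comparisons. Of all tested genes, 15.8% and 16% were higher and 14.4% and 19.3% lower there.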

How the data were processed

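RNA was measured in 18 libraries of 6 groups. The expected counts and TPM per gene were deposited by the authors, who ran RSEM on mm10 after bcl2fastq, per the submitters' processing notes; the file headers name both columns. Whether counting used strand is not given in the sources used here; reads of genes that overlap, such as Ppat and Paics at their starts, may be shared. Expected counts were rounded, TMM-scaled and tested with edgeR 4.0.16 (R 4.3.3) in 1 quasi-likelihood fit over all 6 groups, with Benjamini-Hochberg adjustment over 11876 genes and a threshold of 0.05. CPM are TMM-scaled. Depth was 8056831 to 12068759 counts, where 3 counts are 0.249 to 0.372 CPM. Replicates differed beyond sampling noise (chi-square per degree of freedom 3.64 to 36.3), and the common biological coefficient of variation was 0.13. The highest of these chi-square values, 27.0 and 36.3, were of pairs of cKO medium libraries. The fit was tested on simulated data.

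Named genes were Myc, Mycn, Max and the 3 widest called rises and falls of each comparison, plus members by role. The members and lists were chosen with earlier results of these data known. Replicate numbers paired WT cytokine and WT medium libraries (correlations of deviations 0.34, 0.19 and 0.42), from the data and not the labels. The main fit did not use this pairing. The replicate block was set on all 6 groups, and no fit paired WT cytokine and WT medium libraries alone. The other compared groups did not meet the bar of 0.1 in every pair; for cKO LPS and cKO medium the correlations were 0.22, 0.096 and 0.16, and their first replicates share a high Xist level. Alternatives were DESeq2 1.42.0 with its size factors, RLE and upper-quartile scaling, no filter, limma 3.58.1 on log2(TPM + 1), a replicate block, only the groups compared, and each library left out; leaving out Rn45s, or the first cKO LPS and cKO medium replicates, was added after seeing the data.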

Additional observations from a re-analysis of the deposited data

Results flagged for a closer look

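For 8 members the LPS response differed between cKO and WT cells by the test of the difference itself (edgeR interaction, adjusted p under 0.05), a share of the 39 close to the 17.4% of all tested genes. The difference in log2 fold change, cKO minus WT, was 1.83 for Max, 1.00 for Rrs1, 0.69 for Ptma, 0.60 for Ncl, 0.59 for Npm1 and 0.57 for Nhp2. It was -1.45 for Polr1b and -1.21 for Polr1a. Max alone rose with LPS in cKO cells, while the other 5 with a positive difference fell less there than in WT cells.

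For 4 members the LPS response differed between WT cells with and without IL10 and TGF-β by the same kind of test, a share close to the 8.88% of all tested genes with a positive difference. The difference, with minus without cytokines, was 1.27 for Ubtf, 1.03 for Cad, 0.56 for Pes1 and 0.42 for Npm1. All 4 fell less with LPS where the cytokines were present. Ubtf and Pes1 were higher with cytokines under LPS. Cad and Npm1 were not called there and were lower with cytokines in medium.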

How the results depend on the processing

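Counts of members are given as called with the main settings and then as changed. Members higher in cKO LPS than WT LPS cells went to 0 with limma on TPM, instead of 3. Members higher with cytokines in medium numbered 0 with upper-quartile scaling and with TPM, and 2 with no filter and with the replicate block, instead of 1. The block also added Nop2 there, Fbl and Rrn3 as lower in cKO medium cells, Wdr74 to the genotype differences and Dkc1 to the cytokine differences, and removed Polr1b from the genotype differences; beyond WT cytokine and WT medium cells the numbers did not meet the bar for pairs. Members lower with cytokines under LPS numbered 2 with TPM, instead of 1. Positive genotype differences in the LPS response numbered 3 with TPM, instead of 6. Negative ones, 2 in the main fit, numbered 0 with RLE scaling, with only the groups compared, without Rn45s and without the first cKO replicates, and 1 with DESeq2. The cause was not tested.

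Leaving out 1 library at a time gave 16 to 27 members lower in cKO medium cells, 12 to 18 lower and 2 to 4 higher in cKO LPS against WT LPS cells, and 35 to 37 lower in each LPS comparison. It gave 0 to 4 higher and 3 to 6 lower with cytokines in medium, 5 to 10 higher and 1 to 2 lower with cytokines under LPS, 4 to 8 positive and 0 to 4 negative genotype differences, and 2 to 5 positive and 0 to 1 negative cytokine differences. Ptma in cKO LPS against WT LPS cells reversed with TPM, to -0.10. Low counts limit Gar1, Npm3 and Polr1b most, and also Dkc1 in cKO LPS cells.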
